A study of Homo sapiens with 4 samples.

Results

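The genes described here are the CDK inhibitors and the D-type cyclins, the brakes and the accelerators of the G1 phase of the cell cycle, in the human erythroleukaemia line HEL after knockdown of AFF4. They were taken by symbol as 10 rows of the count table, out of 28103 gene symbols: 3 CIP/KIP inhibitors (CDKN1A, CDKN1B, CDKN1C), 4 INK4 inhibitors (CDKN2A, CDKN2B, CDKN2C, CDKN2D) and 3 D-type cyclins (CCND1, CCND2, CCND3). The 4 libraries are poly(A) RNA-seq of HEL cells grown in RPMI-1640 with serum, 2 of the genotype AFF4 knockdown and 2 labelled Ctrl with a wild-type (WT) genotype. The labels call the cells human erythroblasts and the libraries replicates, and name no separate cultures, so each p-value measures a spread between libraries that may be technical. How and for how long AFF4 was knocked down is not known from the sources used here. AFF4 holds together the super elongation complex, whose kinase P-TEFb releases paused RNA polymerase II into elongation, and the series title places the experiment in a study of that release.

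As background, D-type cyclins bind CDK4 and CDK6 and are made in response to growth signals. The kinases they activate phosphorylate the retinoblastoma protein, which frees E2F factors to transcribe S phase genes. INK4 proteins bind CDK4 and CDK6 and keep D-type cyclins off them, whereas CIP/KIP proteins bind assembled cyclin-CDK complexes and inhibit CDK2 above all. In erythroid cells D-type cyclins serve the expansion of progenitors, and CDK inhibitors accompany the exit from the cell cycle at the end of maturation.

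The gene totals ran from 16643610 to 17955867 reads in the knockdown libraries and from 14903878 to 19129008 in the Ctrl libraries, and levels are given in CPM, read counts scaled to a common library size, after TMM scaling, which treats most genes as unchanged. AFF4 itself was at 18.7 and 18.9 CPM in the knockdown, against 88.3 and 69.2 CPM in Ctrl (log2 fold change -2.07 ± 0.19 SE; edgeR quasi-likelihood test, adjusted p = 0.0268), a call that missed the threshold under 1 alternative, a filter of at least 5 CPM in 2 libraries (adjusted p = 0.0552). Of 10 HEL markers of the erythroid and megakaryocytic lineages all 10 were expressed, with summed levels of 9100 and 9020 CPM in the knockdown and 12600 and 14700 CPM in Ctrl. Most of that gap lay in the near-identical fetal globin genes HBG1 (2292 CPM in the knockdown and 4165 CPM in Ctrl) and HBG2 (4091 and 6556 CPM), between which the counting could split reads, while GATA1, KLF1, TAL1 and EPOR had positive log2 fold changes of 0.011 to 0.76. Of 5 lymphocyte markers CD3D and CD3E were at 0, and the sum, nearly all CD79A, was 2.05 and 2.32 CPM in the knockdown and 1.71 and 2.41 CPM in Ctrl. Of 4 fibroblast markers 3 were at 0. The 5 monocyte and granulocyte markers, mostly LYZ, summed to 53.7 and 50.8 CPM in the knockdown and 61.5 and 56.6 CPM in Ctrl, and 5 epithelial markers, mostly KRT8 and KRT18, to 44.3 and 43.8 CPM in the knockdown and 51.8 and 66.5 CPM in Ctrl. The part of these differences in the results that follow was not tested. In the knockdown 47 of 13572 tested genes rose and 40 fell at an edgeR adjusted p under 0.05, a share of 0.641%.

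The promoters of 3 members are shown whose groups did not overlap, CDKN1A and CCND3 lower and CDKN2C higher in the knockdown. Of all tested genes, 46.1% did not overlap in either direction. CCND2 and CDKN1C did not overlap either, with both lower in the knockdown, but no window was available for them. Each window is RefSeq sequence of GRCh38.p14, from 250 bases before to 50 after an annotated start, and capitals mark GC boxes (GGGCGG) and CCAAT boxes (CCAAT) on either strand. For CDKN2C and CCND3, which have 3 windows each, the one shown lies within 40 bases of the start of a principal transcript in GENCODE 29. Another CDKN2C window, chr1:50960495-50960794, lies exactly on such a start, with 46.3% G and C and 0 GC boxes. Gene counts do not tell which start was used.
CDKN1A, chr6:36678464-36678763, plus strand: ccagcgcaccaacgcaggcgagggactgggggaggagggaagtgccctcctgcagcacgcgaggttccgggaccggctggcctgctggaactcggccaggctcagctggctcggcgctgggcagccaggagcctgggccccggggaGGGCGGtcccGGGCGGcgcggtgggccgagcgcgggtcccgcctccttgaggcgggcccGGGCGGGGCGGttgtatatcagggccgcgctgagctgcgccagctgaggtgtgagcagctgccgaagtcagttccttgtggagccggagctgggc
CDKN2C, chr1:50968456-50968755, plus strand: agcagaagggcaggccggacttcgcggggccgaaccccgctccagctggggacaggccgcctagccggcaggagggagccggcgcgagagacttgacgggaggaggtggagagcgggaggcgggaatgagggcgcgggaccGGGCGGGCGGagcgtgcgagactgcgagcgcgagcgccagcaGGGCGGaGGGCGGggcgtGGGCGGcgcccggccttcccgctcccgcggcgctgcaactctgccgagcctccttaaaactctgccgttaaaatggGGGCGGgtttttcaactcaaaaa
CCND3, chr6:41941759-41942058, minus strand: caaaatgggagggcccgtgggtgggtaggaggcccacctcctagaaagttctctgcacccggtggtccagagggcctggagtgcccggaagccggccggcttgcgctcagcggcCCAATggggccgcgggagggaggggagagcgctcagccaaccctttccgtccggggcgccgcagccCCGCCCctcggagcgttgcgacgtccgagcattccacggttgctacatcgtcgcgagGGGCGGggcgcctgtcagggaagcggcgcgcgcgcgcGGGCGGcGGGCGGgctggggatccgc
The CDKN1A window held 4 GC boxes, the last pair overlapping by a base, and the CDKN2C window held 6, the first pair overlapping. The CCND3 window held 4 GC boxes and 1 CCAAT box. At least 1 GC box occurs in 45% and at least 1 CCAAT box in 34.6% of the 35116 promoter windows of the same length. Those windows were not matched for G and C content, so these shares do not tell whether the numbers of boxes are unusual. The 3 windows had 74.3%, 71.3% and 73.7% G and C, and none of these held TATAAA or TATATA, which 13.7% of all windows hold. The other windows in the table were those of CDKN1B, CDKN2A, CDKN2B and CDKN2D, so 7 of the 10 members had at least 1.

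Per kilobase of exon the members with reads stood in the same order in both groups. CCND3 led with 78.8 CPM per kb in the knockdown and 108 in Ctrl, followed by CDKN2D (34.3 and 39.9), CDKN2C (28.4 and 21), CDKN1B (20.3 and 19.7) and CCND2 (10.9 and 15.8). CDKN1A was low at 1.16 CPM per kb in the knockdown and 3.38 in Ctrl, CDKN1C and CCND1 were under 1 in all libraries, and CDKN2A and CDKN2B had no reads. Among these neighbours, the libraries of CDKN2C and CDKN1B overlapped in Ctrl, at 18.8 and 23.1 against 20.5 and 18.9 CPM per kb, and no other neighbours with reads overlapped in either group. The order rests on lengths that join all exons of a gene in GENCODE 29, and the annotation used for counting is not known. In CPM, without a length, CDKN2C stood above CDKN2D in both groups. The means were 94.2 against 51.6 CPM in the knockdown and 69.5 against 60.0 CPM in Ctrl. In bulk RNA, fewer cells making a transcript and less of it per cell cannot be told apart.

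Of the 10 members, 7 passed the filter on low counts, and 0 of these 7 passed the edgeR test at an adjusted p under 0.05. At an unadjusted p under 0.05 there were 4, with CDKN1A, CCND2 and CCND3 lower and CDKN2C higher, where 15% of all tested genes reached that level, 6.79% higher and 8.19% lower. DESeq2 called 1 member, CDKN1A, against 2.92% of all genes, and limma-voom called 0, against 0.678%. The groups did not overlap in 5 of the 7, beside 46.1% of all tested genes. CDKN1A, CDKN1C, CCND2 and CCND3 were the 4 lower, beside 23% of all genes, and CDKN2C the 1 higher, beside 23.1%. Of these, CDKN1C had only 12 to 18 reads per library. The log2 fold change was negative for 5 of the 7 and for 51.2% of all genes. The median log2 fold change of the 7 was -0.22, against -0.0089 over all tested genes.

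**Figure D1:**
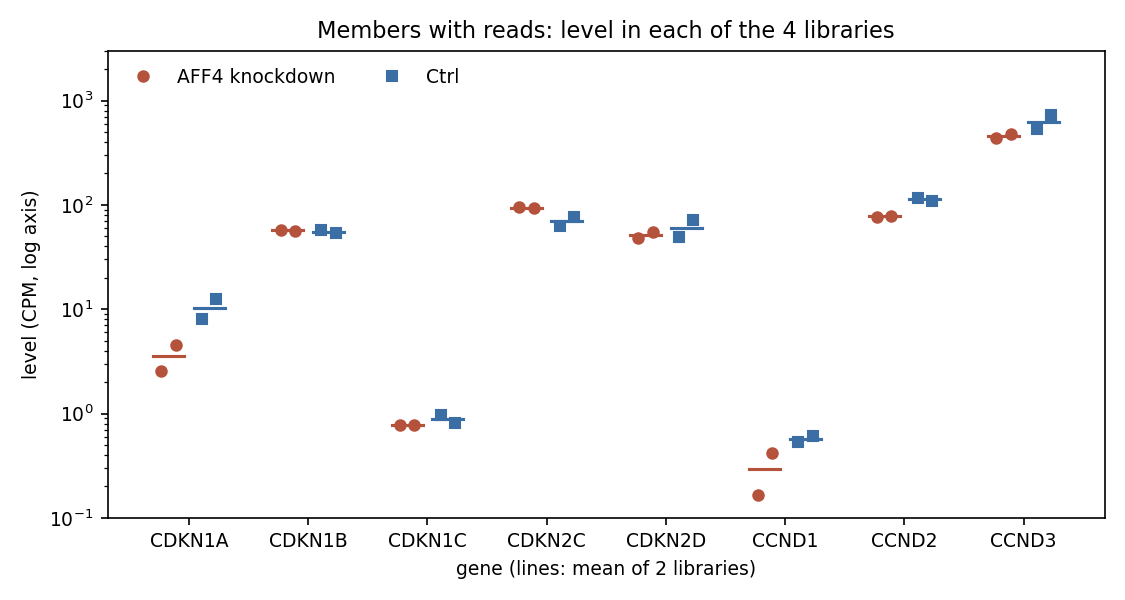
Level of the 8 members with reads in each library, in CPM on a log axis; circles are the 2 AFF4 knockdown libraries, squares the 2 Ctrl libraries, and lines their means. CCND3 lies at 434 to 722 CPM and CCND1 at 0.166 to 0.603 CPM, and CDKN1A is lower in both knockdown libraries than in both Ctrl libraries.

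CDKN1A (p21; chromosome 6, 36676460 to 36687339, plus strand, hg38), the inhibitor known for arresting cells after stress, had the steepest difference of the members. It had 46 and 76 reads in the knockdown, against 151 and 187 in Ctrl, which is 2.54 and 4.51 CPM against 8.08 and 12.5 CPM. Both knockdown libraries lay below both Ctrl libraries, yet each pair was itself spread, with log2 differences of 0.83 between the knockdown libraries and 0.63 between the Ctrl libraries. The exact 95% Poisson intervals, which cover counting error only, were 1.86 to 3.39 and 3.56 to 5.65 CPM in the knockdown, and 6.85 to 9.48 and 10.8 to 14.4 CPM in Ctrl, so that the libraries within each group differed by more than counting error. The mean was 3.53 ± 1.39 CPM in the knockdown and 10.3 ± 3.14 CPM in Ctrl (SD, n = 2 each), a ratio of 0.342. The log2 fold change was -1.54 ± 0.34 (SE; edgeR adjusted p = 0.101), a size reached or passed by 1.12% of the tested genes.

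CDKN1A was the member whose call turned most on the choice of method. It passed in 8 of 14 alternatives, among them no filter on low counts (edgeR adjusted p = 1.96e-04, in a fit that called 3.89% of all genes) and DESeq2 (adjusted p = 0.00518). With a filter of at least 5 CPM in 2 libraries, which called 0.0462% of all genes, it did not pass. Leaving out libraries moved it in both directions. The log2 fold change was -1.16 without knockdown 1 (edgeR adjusted p = 0.697) and -2.01 without knockdown 2 (0.0327), in fits that called 0.331% and 0.366% of all genes. It was -1.84 without Ctrl 1 (3.74e-22) and -1.21 without Ctrl 2 (4.75e-09), where 44% and 48.4% of all genes were called. In each such fit the lone library is assumed to vary like the pair of the other group. Its sign was negative in all 14.

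CDKN1B (p27; chromosome 12, 12715058 to 12722371, plus strand), the inhibitor that holds CDK2 in check in quiescent and differentiating cells, differed by less than the spread between libraries. It was at 57.9 and 56.4 CPM in the knockdown and at 57.7 and 53.2 CPM in Ctrl, and the groups overlapped. Its log2 fold change was 0.044 ± 0.16 (SE; edgeR adjusted p = 0.936). CDKN1C (p57; chromosome 11, 2883213 to 2885773, minus strand), an imprinted inhibitor of embryonic growth, had 14 and 13 reads in the knockdown and 18 and 12 in Ctrl. At 0.774 and 0.772 CPM against 0.964 and 0.803 CPM, its 95% counting intervals ran from 0.411 to 1.32 CPM over the knockdown libraries and from 0.415 to 1.52 CPM over the Ctrl libraries, so a difference was not detectable at this depth (log2 fold change -0.20 ± 0.35 SE; edgeR adjusted p = 0.870).

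CDKN1B made up most of the CIP/KIP inhibitor reads. The summed CIP/KIP level was 61.2 and 61.7 CPM in the knockdown and 66.7 and 66.5 CPM in Ctrl (exact two-sided permutation test, p = 0.333, the smallest this design allows). Per kilobase of exon, CDKN1B made up 94.7% and 91.8% of the family in the knockdown, against 87.1% and 81% in Ctrl. The share of CDKN1A was 3.83% and 6.78% in the knockdown and 11.3% and 17.6% in Ctrl. In reads per kilobase, CDKN1B exceeded CDKN1A by a factor of 24.7 and 13.5 in the knockdown and of 7.74 and 4.61 in Ctrl.

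**Figure D2:**
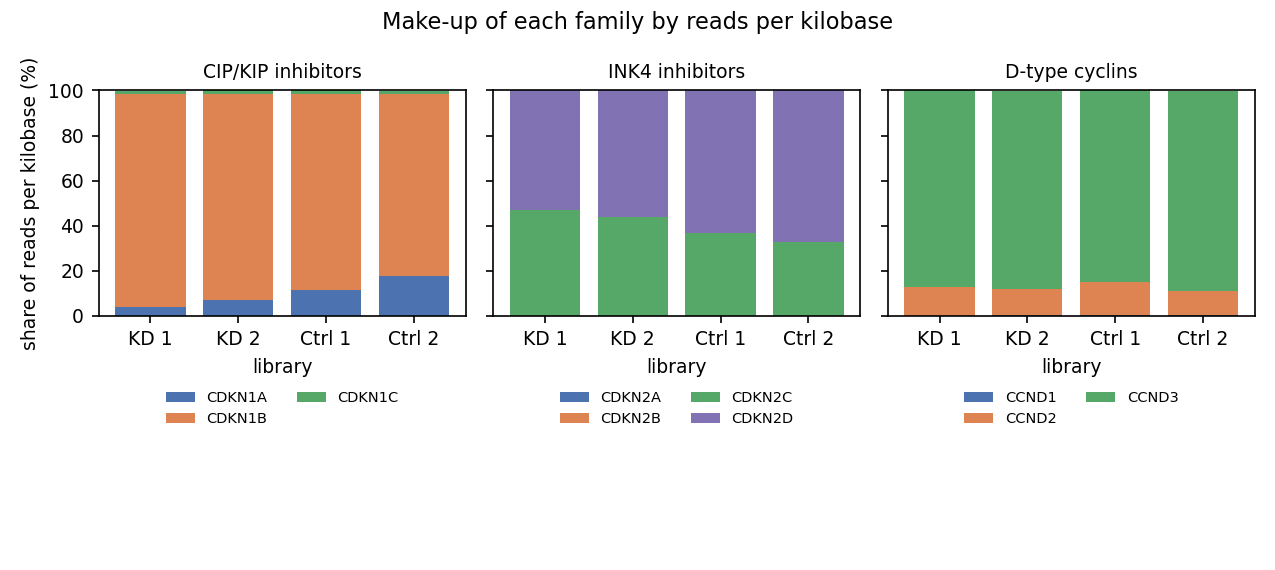
Share of each member in its family's reads per kilobase of exon, in percent, for the 2 AFF4 knockdown (KD) and the 2 Ctrl libraries. CDKN1B fills most of the CIP/KIP bar, CDKN2C takes 47% and 43.7% of the INK4 bar in the knockdown against 36.6% and 32.8% in Ctrl, and CCND3 takes between 84.9% and 88.9% of the D-type cyclin bar in the 4 libraries.

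Among the INK4 inhibitors only CDKN2C and CDKN2D had reads in these 4 libraries. CDKN2C (p18; chromosome 1, 50960745 to 50974633, plus strand) was at 94.7 and 93.7 CPM in the knockdown, against 62.5 and 76.5 CPM in Ctrl, and was the 1 tested member whose knockdown libraries both lay above Ctrl. The mean was 94.2 ± 0.716 CPM in the knockdown and 69.5 ± 9.89 CPM in Ctrl (SD, n = 2 each), and the log2 fold change was 0.44 ± 0.16 (SE; edgeR adjusted p = 0.274). Of all tested genes, 20.9% had a log2 fold change at least as large in size. It was 0.30 without Ctrl 1 and 0.59 without Ctrl 2, and in these fits, which called 44% and 48.4% of all genes, the edgeR adjusted p was 6.47e-04 and 1.70e-12. Without either knockdown library it was 1.

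CDKN2D (p19; chromosome 19, 10566462 to 10569059, minus strand) was at 48.4 and 54.7 CPM in the knockdown and at 49 and 71 CPM in Ctrl. The Ctrl libraries enclosed one knockdown library, and their own distance was larger than that between the group means of 51.6 CPM in the knockdown and 60.0 CPM in Ctrl. The log2 fold change was -0.22 ± 0.22 (SE; edgeR adjusted p = 0.728), and its direction rested on Ctrl 2, since it was -0.46 without Ctrl 1 (edgeR adjusted p = 9.05e-07) and 0.069 without Ctrl 2 (0.538). Per kilobase, the ratio of CDKN2C to CDKN2D was 0.886 and 0.776 in the knockdown and 0.578 and 0.488 in Ctrl. The summed INK4 level was 143 and 148 CPM in the knockdown and 112 and 147 CPM in Ctrl (exact two-sided permutation test, p = 0.667; the smallest possible is 0.333), and the log2 ratio of the group means, 0.17 with 4 libraries, was -0.017 without Ctrl 1 and 0.39 without Ctrl 2.

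CDKN2A (chromosome 9, 21967753 to 21995301), which encodes the INK4 protein p16 and, from another reading frame, the tumour suppressor ARF, had 0 reads in each of the 4 libraries. CDKN2B (p15; chromosome 9, 22002903 to 22009363) also had 0 in each. A count of 0 allows up to 0.166 and 0.178 CPM in the knockdown libraries and 0.161 and 0.201 CPM in the Ctrl libraries, taking 3 reads as the limit. No comparison between the groups was therefore possible for this pair.

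The absence of reads extended to the neighbours of this pair. All 8 genes of the fixed neighbour list that the table holds were at 0, among them MTAP, an enzyme of methionine salvage made in most tissues, KLHL9, an adaptor of a ubiquitin ligase, and the antisense gene CDKN2B-AS1. Following the order of the annotation, a step chosen after these values were seen, 29 consecutive genes were at 0 in all libraries, 23 of them protein-coding, from IFNB1 (21077105) to IZUMO3 (24545946), a span of 3.47 Mb. Many of these are interferon genes that are silent without a stimulus in most cells. HACD4, the gene directly before the stretch, had only 2 and 1 reads in the knockdown and 1 and 0 in Ctrl. Expressed genes lay beyond both ends. FOCAD, farther before the stretch, had 570 and 516 reads in the knockdown and 796 and 493 in Ctrl. TUSC1, directly after it, had 789 and 860 in the knockdown and 809 and 869 in Ctrl. Among 64 runs of at least 10 consecutive genes without reads on the annotated chromosomes, this one ranked 7 by number of genes and 4 by span. As background, this region of chromosome 9 is often deleted in leukaemia lines, and whether its DNA is present in these cells was not tested.

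**Figure D3:**
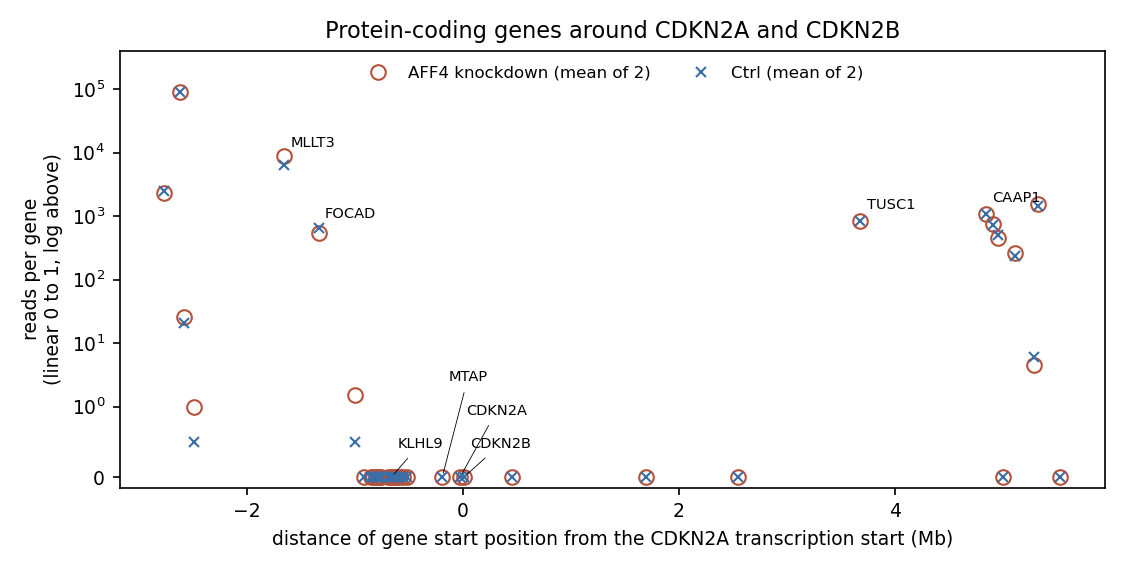
Reads per protein-coding gene around CDKN2A and CDKN2B, as the mean of the 2 AFF4 knockdown libraries (circles) and of the 2 Ctrl libraries (crosses), against the distance from the CDKN2A start in Mb; the vertical axis is linear up to 1 and logarithmic above. A row of genes at 0, which holds CDKN2A, CDKN2B, MTAP and KLHL9, lies between expressed genes such as FOCAD and TUSC1.

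CCND3 (chromosome 6, 41934933 to 42050357, minus strand), the D-type cyclin tied to the division of erythroid progenitors in mice, was the most abundant member per kilobase. It was at 434 and 480 CPM in the knockdown, against 529 and 722 CPM in Ctrl. Both knockdown libraries lay below both Ctrl libraries, but the Ctrl libraries lay farther from each other than the higher knockdown library lay from the lower Ctrl library. The mean was 457 ± 32.2 CPM in the knockdown and 625.3 ± 136.9 CPM in Ctrl (SD, n = 2 each), a ratio of 0.731. The log2 fold change was -0.45 ± 0.17 (SE; edgeR adjusted p = 0.290), with 20.2% of the tested genes at least as far from 0. It was -0.66 without Ctrl 1 and -0.21 without Ctrl 2 (edgeR adjusted p = 1.49e-23 and 0.00222), in the fits that called 44% and 48.4% of all genes. Without either knockdown library the adjusted p was 1.

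CCND2 (chromosome 12, 4273772 to 4305350, plus strand), the D-type cyclin that cytokine signals through STAT5 induce in many blood cells, had the tightest values of the family. It was at 77.1 and 78.3 CPM in the knockdown, against 116 and 110 CPM in Ctrl, and the gap between the groups was several times the distance within either. The mean was 77.7 ± 0.913 CPM in the knockdown and 112.9 ± 3.82 CPM in Ctrl (SD, n = 2 each), a ratio of 0.688. The log2 fold change was -0.54 ± 0.14 (SE; edgeR adjusted p = 0.147), ranging from -0.57 to -0.50 with 1 library left out, and it passed without Ctrl 1 or Ctrl 2 (edgeR adjusted p = 8.36e-10 and 1.05e-13), where 44% and 48.4% of all genes did. Without either knockdown library its adjusted p was 1. Its antisense gene CCND2-AS1, which overlaps it, had 1 or 2 reads in each library.

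CCND1 (chromosome 11, 69641087 to 69654474, plus strand), the D-type cyclin of many solid tumours, was nearly silent, with 3 and 7 reads in the knockdown and 10 and 9 in Ctrl. It did not pass the filter. At 0.166 and 0.416 CPM against 0.535 and 0.603 CPM, the lower knockdown value carried a 95% counting interval of 0.0342 to 0.485 CPM and the lower Ctrl value one of 0.257 to 0.985 CPM, and without a filter its log2 fold change was -0.96 ± 0.65 (SE; edgeR adjusted p = 0.635).

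The summed D-type cyclin level was 511 and 558 CPM in the knockdown and 645 and 833 CPM in Ctrl, a ratio of 0.724 between the means (exact two-sided permutation test, p = 0.333, the smallest this design allows). The make-up of the pool did not separate the groups. Per kilobase, CCND3 took 87.4% and 88.2% in the knockdown and 84.9% and 88.9% in Ctrl, and its ratio to CCND2 was 6.95 and 7.55 in the knockdown and 5.64 and 8.08 in Ctrl.

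**Figure D4:**
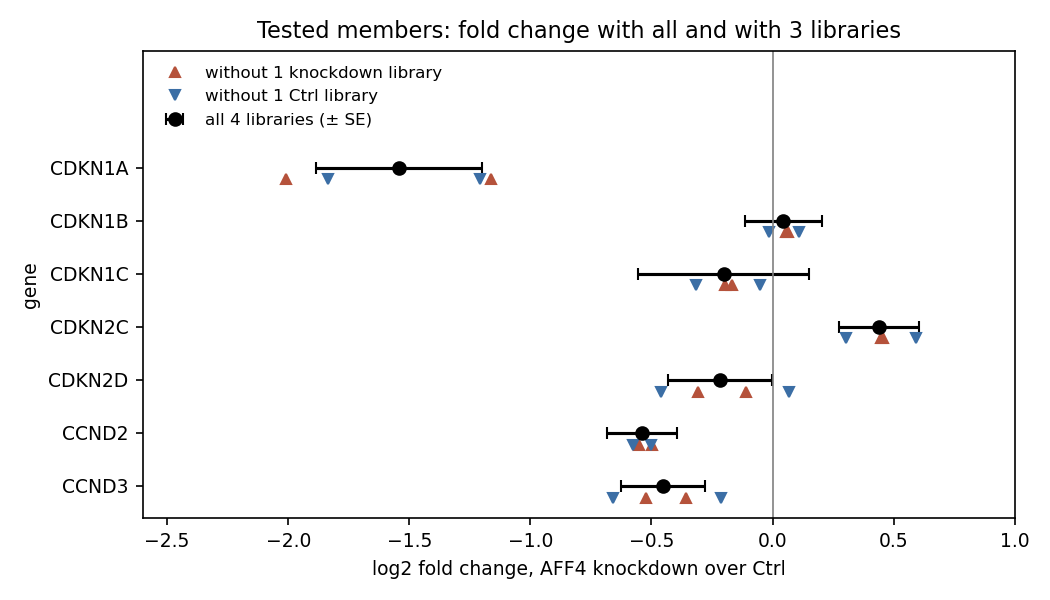
Log2 fold change, AFF4 knockdown over Ctrl, of the 7 tested members; black points with bars are the edgeR estimates ± SE from 4 libraries, and triangles the estimates with 1 knockdown (upward) or 1 Ctrl (downward) library left out. CCND2 keeps a narrow range, CDKN1A runs from -2.01 to -1.16, and CDKN1B and CDKN2D cross 0 without Ctrl 2.

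The difference between the Ctrl libraries followed the GC content of the transcripts. Over 10610 tested genes of at least 5 CPM, Spearman's rho between GC content and the log2 difference of Ctrl 2 minus Ctrl 1 was 0.873, and for knockdown 2 minus knockdown 1 it was 0.513; these are relations across genes of the same libraries. The median of Ctrl 2 minus Ctrl 1 was -0.40 in the fifth of genes with the lowest GC content and 0.67 in the fifth with the highest, whereas the medians of knockdown 2 minus knockdown 1 in these bins were -0.055 and 0.11. Across genes the log2 fold change of knockdown over Ctrl had a rho of 0.0334 with GC content.

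The members followed this gradient in part. CDKN1A, CDKN2C, CDKN2D and CCND3, with 56.2% to 61.3% GC, were higher in Ctrl 2 than in Ctrl 1 by 0.29 to 0.62 on the log2 scale. CCND2 and CDKN1B, with 45.5% and 47.7% GC, differed by -0.069 and -0.12. CDKN2C, at 0.29, lay below the quartiles of its GC bin (0.50 to 0.84), CCND3, at 0.45, above those of its own (0.076 to 0.39), and CDKN1C, with 63.8% GC and few reads, far below at -0.23. After a trend with GC content had been removed from each library, 4 of the 7 members passed the edgeR test, in a fit that called 28.2% of all genes. CDKN1A (-1.53; edgeR adjusted p = 0.00319), CCND2 (-0.55; 0.00187) and CCND3 (-0.45; 0.00304) were then lower and CDKN2C (0.44; 0.00414) higher, with fold changes close to those without the correction, while CDKN2D (-0.19; 0.0745) did not pass.

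**Figure D5:**
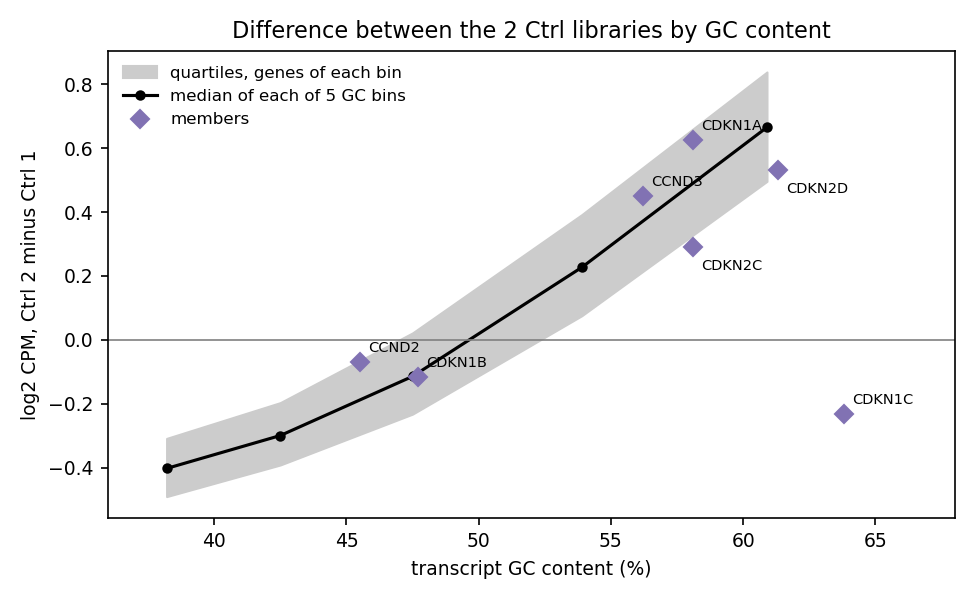
Log2 CPM of Ctrl 2 minus Ctrl 1 against transcript GC content in percent; the black line joins the medians of 5 bins of 2122 genes, the grey band spans their quartiles, and diamonds are the tested members. The bin medians climb from -0.40 to 0.67. CDKN2C sits below the line, and CDKN2D and CDKN1C lie past its right end, below the last median.

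The partners through which these genes act are described by list. Over all tested genes, 15% had an unadjusted p below 0.05, 6.79% higher and 8.19% lower. The share called was 0.641% in edgeR, 2.92% in DESeq2 and 0.678% in limma-voom. Of 15 G1 and S phase kinases, their cyclins and activators, 13 were tested and 0 passed edgeR (unadjusted p below 0.05 in 2 lower and 0 higher genes; DESeq2 and limma-voom called 0), with a median of -0.11. CDK4 was at 269.6 ± 1.07 CPM in the knockdown and 256.3 ± 46.1 CPM in Ctrl, and CDK6 at 142.9 ± 1.52 and 122.3 ± 20.6 CPM in the same order (SD, n = 2 each). CDK2 had a log2 fold change of -0.11 ± 0.14. The members with the smallest p were CCNA2, the S phase and mitotic cyclin (-0.60 ± 0.16; edgeR adjusted p = 0.151), and the phosphatase CDC25B (-0.68 ± 0.19; 0.161).

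Of 19 pocket proteins, E2F factors and DREAM subunits, all 19 were tested and 0 passed edgeR (unadjusted p below 0.05 in 1 higher and 3 lower genes; DESeq2 called 1 and limma-voom 0), with a median of -0.081. RB1, the retinoblastoma protein that CDK4 and CDK6 phosphorylate, was at 140.4 ± 2.90 CPM in the knockdown and 141.6 ± 35.9 CPM in Ctrl (SD, n = 2 each). TFDP2, a dimer partner of E2F factors, had a log2 fold change of 0.63 ± 0.15, and LIN54, E2F2 and E2F8 had -0.55, -0.53 and -0.48 (edgeR adjusted p = 0.124, 0.277, 0.278 and 0.306). Of 20 turnover factors 0 passed edgeR (unadjusted p below 0.05 in 0 higher genes and 1 lower gene; DESeq2 and limma-voom called 0), with a median of 0.018. SKP2, which marks p27 for destruction, had -0.24 ± 0.17, and CDC20 had -0.50 ± 0.20 (edgeR adjusted p = 0.599 and 0.312).

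Among 28 transcription factors known to act on these genes, 27 were tested, 1 fell and 0 rose, with a median of -0.043. At an unadjusted p below 0.05, 5 were higher and 8 lower, beside 6.79% and 8.19% of all tested genes. DESeq2 called 4 and limma-voom 1, beside 2.92% and 0.678% of all genes. EGR1, an immediate early factor, fell to 60.4 ± 3.31 CPM in the knockdown, against 131.6 ± 16.6 CPM in Ctrl (SD, n = 2 each; log2 fold change -1.12 ± 0.16 SE; edgeR adjusted p = 0.0415). SMAD3, a mediator of TGF-beta signals, had 0.82 ± 0.17, and KLF6 and JUN had -1.02 ± 0.21 and -1.28 ± 0.28 (edgeR adjusted p = 0.0869, 0.0901 and 0.0997). Of 15 genes that act on the INK4 locus, Polycomb subunits and a histone demethylase, 0 passed edgeR, and DESeq2 and limma-voom called 0. At an unadjusted edgeR p below 0.05, 1 was higher and 0 lower, and the median log2 fold change was -0.035. EZH1 had the smallest p (0.52 ± 0.17, edgeR adjusted p = 0.209).

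Of 9 proliferation genes 0 passed edgeR (DESeq2 called 2 and limma-voom 0), with a median log2 fold change of -0.54. It was negative for 8 of the 9, beside 51.2% of all tested genes, and 6 were lower at an unadjusted p under 0.05, beside 8.19%. MCM2, MCM5 and PCNA, which serve DNA replication, had -0.22, -0.054 and 0.050 and overlapped between the groups. The summed level of all 9 proliferation genes was 2340 and 2300 CPM in the knockdown and 3350 and 2970 CPM in Ctrl. MKI67, the Ki-67 antigen of dividing cells, was at 307.4 ± 2.19 CPM in the knockdown and 483.7 ± 28.5 CPM in Ctrl (SD, n = 2 each; log2 fold change -0.65 ± 0.13; edgeR adjusted p = 0.0808). The part of cell division in the levels of the cyclins and inhibitors was not tested.

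The genes most like CDKN1A, the tested member with the smallest p, were sought among 10700 genes by the Euclidean distance of centred log2 CPM over the 4 libraries. They were LGALS3BP, SPAG4, HAPLN3, JUN and LPAR2, at distances of 0.463 to 0.552. Their transcripts had 56.7% to 62.9% GC, against 58.1% for CDKN1A, and all 5 were higher in Ctrl 2 than in Ctrl 1. The part of the GC gradient in this likeness was not tested. LGALS3BP had 4.26 ± 0.945 CPM in the knockdown and 9.69 ± 2.87 CPM in Ctrl, and JUN had 4.42 ± 0.387 and 10.8 ± 3.54 CPM in the same order (SD, n = 2 each). The choice by likeness fixes their direction. Of the 5, SPAG4 was called (log2 fold change -1.47 ± 0.22; edgeR adjusted p = 0.0471).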

How the data were processed

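Poly(A) RNA-seq libraries of HEL cells, 2 AFF4 knockdown and 2 Ctrl, were read from whole-number counts per gene symbol as the authors deposited them. The build is hg38 and the tools listed are HISAT2 2.1.0, featureCounts 1.6.1 and fastp 0.13.1, per the submitters' processing notes, which name no role or order. No source used here gives the annotation, the strand setting or the handling of multi-mapped reads, so counts of overlapping genes are uncertain. The table held 28103 symbols, 9241 at 0 in all libraries, and 0 unused columns.

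Counts were filtered with filterByExpr (minimum count 10, minimum total 15), scaled by TMM and tested with edgeR 4.0.16 in R 4.3.3 by the quasi-likelihood F test with the group as the only term, adjusted by Benjamini-Hochberg over 13572 genes. The SE is the absolute log2 fold change over the square root of F. Calls are adjusted p-values under 0.05. Summed CPM of families were compared by exact permutation over the 4 libraries. Alternatives used DESeq2 1.42.0, limma-voom (limma 3.58.1), other scalings and filters, the replicate number as a block, a GC correction (lowess, span 0.4) and 1 library left out.

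Positions, exonic length and transcript GC content came from GENCODE 29 (GRCh38, the assembly also called hg38), where 25861 symbols matched by name and 155 by another symbol. Levels per kilobase use these exonic lengths, and promoter sequences are RefSeq's. Tested on simulated counts for 13455 genes, edgeR called 77% of the 100 genes given a 2-fold change and 99% of the 100 given a 4-fold change. It also called 9 genes given no change. The simulation gave every gene the same spread between libraries and held no GC gradient, so these shares need not hold for the measured libraries.

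The members and lists were chosen with earlier results of these data known. All members and AFF4 were named. Of each other list, called genes or else up to 4 with the smallest p were named, with CDK4, CDK6, CDK2, RB1, SKP2, MTAP and MKI67 allowed in any case. The result for 1 gene of the lists is not reported here.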

Additional observations from a re-analysis of the deposited data

How the results depend on the processing

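The number of members called was 0 with RLE, upper-quartile and library-size scaling, with the filter of at least 5 CPM in 2 libraries, in limma-voom and at an adjusted p under 0.01. It was 1 with no filter, 1 in DESeq2, 4 with the GC correction, and 0 to 5 with 1 library left out. Over all genes, 87 were called at first, 734 with no filter, 5 with the stricter filter, 391 in DESeq2, 3724 with the GC correction, 3 at an adjusted p under 0.01, and 46 to 6722 with 1 library left out, the highest without Ctrl 2. The replicate number as a block gave 888 calls over all 13572 genes and 1 member, CDKN1A, and the block with the GC correction gave 4776 and 5. Same-numbered libraries deviated together with r = 0.285 over 13572 genes, but there are only 2 pairs and the labels name nothing they share, so they share a number and no pairing is known.

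Of 97 member values under alternatives, 73 kept their direction and side of the threshold, 22 newly passed, 18 lower and 4 higher, and 2 reversed. Without Ctrl 2, CDKN1B was at -0.014 and CDKN2D at 0.069; with 1 library left out they ranged from -0.014 to 0.11 and from -0.46 to 0.069. The summed log2 ratio ranged from -0.12 to -0.11 for CIP/KIP inhibitors, from -0.017 to 0.39 for INK4 inhibitors, which reversed without Ctrl 1, and from -0.64 to -0.27 for D-type cyclins with 1 library left out. The cause of these shifts was not tested. Depth limits CDKN1C and CCND1, with at most 18 reads in a library.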

Other observations

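KCNQ1OT1, the imprinted antisense transcript of the domain that holds CDKN1C, was at 16.6 ± 0.0886 CPM in the knockdown and 21.4 ± 0.335 CPM in Ctrl (SD, n = 2 each), which is -0.37 ± 0.18 on the log2 scale (SE; adjusted p = 0.403 in edgeR). PANDAR, a noncoding RNA next to CDKN1A, and LINC01488, a noncoding RNA near CCND1, had 0 reads in the 4 libraries.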
